A study of Mus musculus with 16 samples.

Results

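Expression of 8 genes known from lipid-laden (foamy) macrophages and from the lysosome was followed through the lungs of mice given crystalline silica (CS), and 7 of them were measured. These are Gpnmb, Trem2, Cd68, Lgals3, Lipa, Atp6v0d2 and Mcoln3. Spp1, the gene of osteopontin, has no probe set under that symbol in the platform annotation used here and was not analysed here. The genes were listed by name, and each was read from the 1 probe set that carries its symbol, out of 19938 genes in all.

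Total lung RNA was measured on 16 Affymetrix whole-transcript arrays as log2 expression levels, from C57BL/6 mice given as 10 to 12 weeks of age. CS was given into the trachea, with phosphate-buffered saline (PBS) as the control, which makes 8 groups. At day 2 the groups are BLT1-/- with CS, BLT1-/- with PBS, BLT1+/+ with CS and BLT1+/+ with PBS, all without a tumor allele. At day 60 they are BLT1-/-KRasLA1 with CS, BLT1-/-KRasLA1 with PBS, BLT1+/+KRasLA1 with CS and BLT1+/+KRasLA1 with PBS. All day 60 mice, PBS controls included, carry KRasLA1, a latent oncogenic allele that recombines by chance in single cells and gives lung tumors, so day and allele cannot be told apart. BLT1 is the high-affinity receptor of leukotriene B4, a lipid that draws neutrophils. Each CS group is 3 lungs called biological replicates in the labels, and each PBS group is a single array of RNA pooled from 3 mice. No source used here ties a lung to a cage, litter or day of work, so the p-values measure the spread between these lungs, part of which may be technical. In whole lung RNA, more cells of a kind and more RNA of a gene per cell cannot be told apart.

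Alveolar macrophages take up surfactant lipid and inhaled particles and break them down in lysosomes, which are kept acid by a proton pump. Silica crystals cannot be digested, and silica-exposed lungs are known for macrophages filled with crystals and with lipid. GPNMB, TREM2, CD68, galectin-3 and osteopontin are used as markers of lipid-laden or phagocytic macrophages in several tissues, while LIPA, ATP6V0D2 and MCOLN3 belong to the working parts of the lysosome and of endosomes.

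At day 60 all 7 measured genes were higher in CS lungs than in PBS pools, from 1.54-fold for Lipa to 3.77-fold for Gpnmb, averaged over the BLT1 genotypes, where 4.02% of all genes passed the test. A gene passed with a limma p, adjusted over all 19938 genes, under 0.05. At day 2 the test was passed by 4 of the 7, where 12.4% of all genes passed. These were Gpnmb (2.33-fold), Cd68 (1.54-fold), Lgals3 (1.42-fold) and Atp6v0d2 (1.38-fold), while Trem2, Mcoln3 and Lipa lay between 1.02-fold and 1.15-fold and did not pass. No measured member passed the test between BLT1-/- and BLT1+/+ lungs after CS, where 0.0201% of all genes passed at day 2 and 0.0401% at day 60.

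Several properties of the arrays bear on all of these values. Array medians lay between 8.25 and 8.34, and even the 2 most similar arrays differed (SD of 0.221 over probe sets). Ltb4r1, the gene of BLT1, read between 7.22 and 7.63 on all 16 arrays, and without knowing whether its probe set lies in the deleted part this checks no genotype. The Y-linked Eif2s3y read 10.09 in BLT1+/+KRasLA1 CS replicate 2, 9.04 in the BLT1-/-KRasLA1 PBS pool and 9.68 in the BLT1+/+KRasLA1 PBS pool, and 4.27 to 4.74 on the other 13 arrays. The X-linked Xist read 6.61, 12.16 and 12.32 on these 3 arrays, in the same order, and 12.75 to 13.06 on the other 13. Y-linked RNA was thus seen on 3 day 60 arrays and on 0 day 2 arrays. At day 60 it was in both PBS pools and in only this CS lung. Sex therefore goes partly with CS against PBS at day 60, as well as with day. The part of sex in the results was not tested. Without BLT1+/+KRasLA1 CS replicate 2, the response of BLT1+/+KRasLA1 lungs was 0.98 for Cd68 (limma adjusted p = 0.0782) and 1.14 for Trem2 (adjusted p = 0.058), both lost. Replicate 1 of that group is among the other 13 arrays, and without it both were lost as well. Cd68 was then at 0.92 (limma adjusted p = 0.0714) and Trem2 at 1.09 (adjusted p = 0.0532), and Lipa was also lost (0.62, adjusted p = 0.0522).

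Gpnmb (probe set 10538187) encodes a surface and endosomal glycoprotein of macrophages, osteoclasts and melanocytes. Its log2 level at day 2 was 9.99, 9.77 and 10.44 in BLT1-/- CS lungs against 8.89 in their PBS pool, and 10.20, 9.93 and 10.62 in BLT1+/+ CS lungs against 8.98 in theirs. At day 60 it was 11.70, 11.95 and 11.97 in BLT1-/-KRasLA1 CS lungs against 10.08 in the pool, and 12.32, 12.31 and 11.53 in BLT1+/+KRasLA1 CS lungs against 10.02. Every CS lung stood above its own pool at both days, the lungs of the BLT1 genotypes overlapped, and the day 60 PBS pools were about as high as the day 2 CS lungs. The 8 group means spanned 3.16 log2 units, against 1.05 to 2.09 for the other 6 genes.

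Trem2 (probe set 10445781) encodes a receptor for lipids and lipoproteins that signals through the adaptor TYROBP and the kinase SYK. At day 2 its log2 level was 8.82, 8.85 and 9.01 in BLT1-/- CS lungs against 8.81 in the pool, and 8.95, 8.80 and 9.02 in BLT1+/+ CS lungs against 8.60. In the day 60 arrays it was 9.92, 10.02 and 10.08 in BLT1-/-KRasLA1 CS lungs against 8.96, and 10.39, 10.29 and 9.64 in BLT1+/+KRasLA1 CS lungs against 8.87. The 6 day 60 CS lungs thus stood apart from all other arrays, and the other 6 group means, PBS pools of both days included, lay between 8.60 and 8.96, with no gap between neighbours above the pooled SD of 0.22.

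Cd68 (probe set 10387536) encodes a heavily glycosylated protein of late endosomes and lysosomes that is used to stain macrophages. At day 2 it was at 11.43, 11.30 and 11.45 in BLT1-/- CS lungs against 10.95 in the pool, and at 11.49, 11.52 and 11.90 in BLT1+/+ CS lungs against 10.83. The day 60 levels were 12.24, 12.40 and 12.39 in BLT1-/-KRasLA1 CS lungs against 11.31, and 12.57, 12.46 and 11.98 in BLT1+/+KRasLA1 CS lungs against 11.30. All CS lungs exceeded their pools, and at day 2 each BLT1-/- CS lung was below each BLT1+/+ CS lung.

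Lgals3 (probe set 10414360) encodes galectin-3, a sugar-binding protein that gathers at damaged lysosomes. At day 2 its log2 level was 12.11, 11.97 and 12.23 in BLT1-/- CS lungs against 11.58 in the pool, and 11.92, 12.17 and 12.22 in BLT1+/+ CS lungs against 11.61. At day 60 it was 12.53, 12.60 and 12.65 in BLT1-/-KRasLA1 CS lungs against 11.84, and 12.84, 12.82 and 12.27 in BLT1+/+KRasLA1 CS lungs against 11.89. Both days showed CS lungs above pools, and the day 60 pools lay below every day 2 CS lung.

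Lipa (probe set 10467139) encodes lysosomal acid lipase, which frees cholesterol and fatty acids from engulfed lipid. At day 2 its log2 level was 11.41, 11.38 and 11.55 in BLT1-/- CS lungs against 11.36 in the pool, and 11.43, 11.44 and 11.46 in BLT1+/+ CS lungs against 11.47. By day 60 the level was 12.34, 12.26 and 12.34 in BLT1-/-KRasLA1 CS lungs against 11.73, and 12.51, 12.51 and 12.22 in BLT1+/+KRasLA1 CS lungs against 11.75. All day 2 arrays lay between 11.36 and 11.55, the day 60 pools lay above all day 2 arrays, and the day 60 CS lungs lay above the pools.

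Atp6v0d2 (probe set 10511779) encodes a subunit of the membrane sector of the lysosomal proton pump that is found in macrophages and osteoclasts. At day 2 it was at 11.15, 10.96 and 11.44 in BLT1-/- CS lungs against 10.67 in the pool, and at 11.01, 11.26 and 11.16 in BLT1+/+ CS lungs against 10.73. The day 60 levels were 12.78, 12.65 and 12.62 in BLT1-/-KRasLA1 CS lungs against 11.90, and 12.86, 12.98 and 12.44 in BLT1+/+KRasLA1 CS lungs against 11.56. Its day 60 PBS pools were above every day 2 CS lung, a feature shared with Lipa and Mcoln3.

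Mcoln3 (probe set 10496756) encodes a cation channel of endosomes and lysosomes. At day 2 its log2 level was 9.10, 9.10 and 9.15 in BLT1-/- CS lungs against 8.91 in the pool, and 8.95, 9.20 and 8.96 in BLT1+/+ CS lungs against 9.11. At day 60 it was 10.65, 10.65 and 10.47 in BLT1-/-KRasLA1 CS lungs against 10.07, and 10.53, 10.88 and 10.45 in BLT1+/+KRasLA1 CS lungs against 9.74. The day 2 arrays of both treatments overlapped, while the day 60 pools stood far above every day 2 array.

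**Figure D1:**
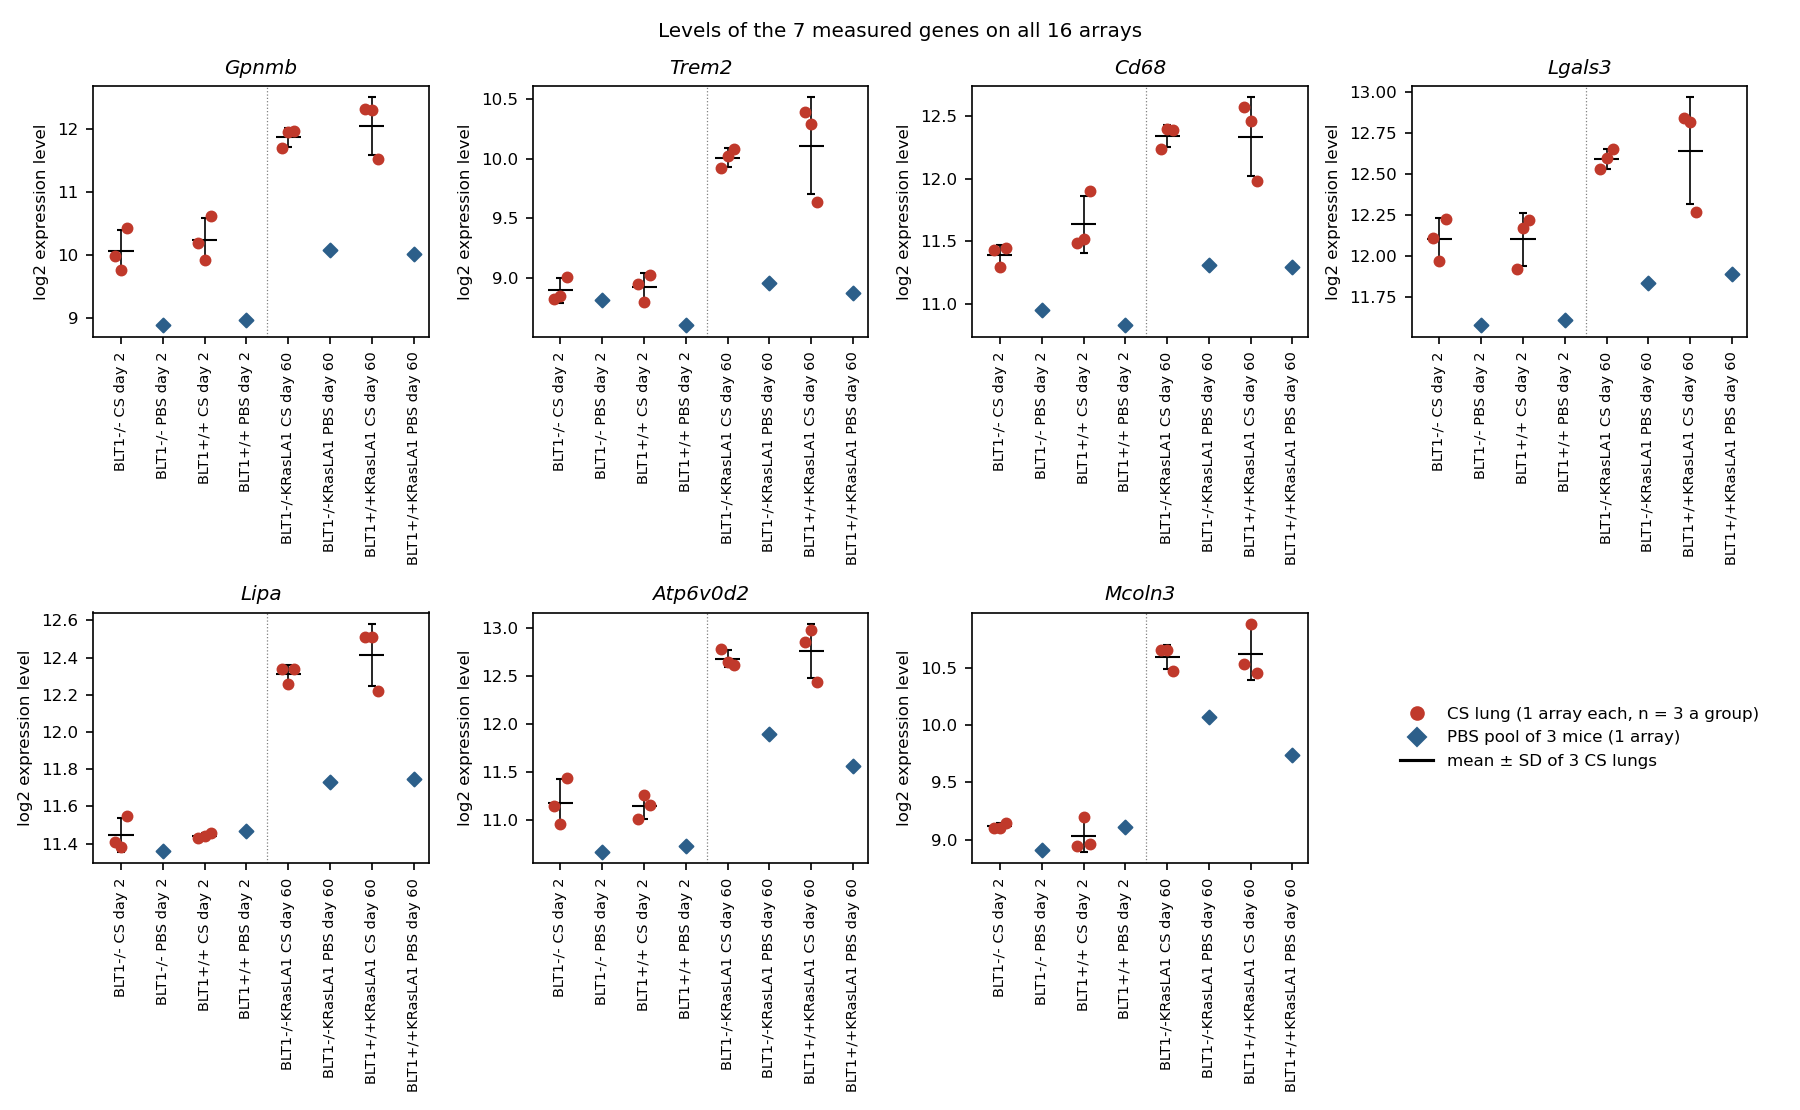
Log2 expression level (y axis) of each of the 7 measured genes on all 16 arrays, by group (x axis). Circles are single CS lungs, diamonds are PBS pools, and the horizontal line and bars are the mean ± SD of 3 CS lungs. The day 60 CS lungs are the highest groups in all 7 panels, and Lipa, Atp6v0d2 and Mcoln3 have day 60 PBS pools above every day 2 CS lung.

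In the order of the 8 group means, both day 60 CS groups came first for all 7 genes and were followed by a gap above the gene's pooled SD between lungs. The BLT1-/-KRasLA1 and BLT1+/+KRasLA1 CS groups themselves were never separated by more than that SD. Below them the order differed between genes. For Gpnmb the day 2 CS groups and the day 60 pools lay together, with neighbouring means of 10.25, 10.08, 10.07 and 10.02 and gaps below the pooled SD of 0.34. For Cd68 and Lgals3 the day 2 CS groups came next and the day 60 pools after them, and for Lipa, Atp6v0d2 and Mcoln3 the day 60 pools came next. At the lower end, the day 2 pools were last and next to last for Gpnmb, Cd68, Lgals3, Atp6v0d2 and Trem2.

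The promoters of 3 genes are shown because they share a motif that was searched for, the AP-1 element TGANTCA, which reads the same on both strands. They are the RefSeq promoters of Gpnmb (chr6:49036268-49036567, plus strand), Trem2 (chr17:48346151-48346450, plus strand) and Cd68 (chr11:69666121-69666420, minus strand) in build GRCm38.p6. Each runs 5′ to 3′ along the gene, from 250 bases before the start through the first 50 bases from it, and capitals mark the motif matches.
Gpnmb: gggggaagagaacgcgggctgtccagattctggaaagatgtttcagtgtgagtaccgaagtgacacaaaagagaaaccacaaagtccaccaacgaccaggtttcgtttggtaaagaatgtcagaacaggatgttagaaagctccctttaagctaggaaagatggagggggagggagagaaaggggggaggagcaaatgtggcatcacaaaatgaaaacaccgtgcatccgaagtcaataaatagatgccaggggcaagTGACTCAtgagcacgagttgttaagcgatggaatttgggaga
Trem2: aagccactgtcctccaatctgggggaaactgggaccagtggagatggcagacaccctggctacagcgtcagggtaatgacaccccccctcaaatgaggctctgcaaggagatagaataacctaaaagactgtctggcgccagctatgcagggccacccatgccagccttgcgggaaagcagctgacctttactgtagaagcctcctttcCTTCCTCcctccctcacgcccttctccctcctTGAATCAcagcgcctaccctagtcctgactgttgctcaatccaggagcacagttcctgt
Cd68: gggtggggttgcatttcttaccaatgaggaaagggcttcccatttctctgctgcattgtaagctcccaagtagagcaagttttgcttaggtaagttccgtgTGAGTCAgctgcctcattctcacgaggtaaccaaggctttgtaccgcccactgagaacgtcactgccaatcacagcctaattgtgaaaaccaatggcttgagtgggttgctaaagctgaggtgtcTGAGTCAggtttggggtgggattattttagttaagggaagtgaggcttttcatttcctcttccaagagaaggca
The TGANTCA match begins at base 9 of the transcribed part in Gpnmb, 9 bases before the start in Trem2, and 149 and 24 bases before the start in Cd68. Among 32851 RefSeq promoters of 300 bases, 7.81% hold the motif, and within 100 bases before to 50 after the start 3.86% hold it, which again include these 3 genes. In Trem2 the run of capitals that comes first, CTTCCTC, is GAGGAAG on the other strand, a core bound by the macrophage factor PU.1. It begins 41 bases before the start. GAGGAAG was also found in the promoters of Lipa, Mcoln3 and Spp1, beginning 183, 130 and 113 bases before the start, and 13.6% of all promoters hold it on either strand. Within the short window of 100 bases before the start and 50 after, only Trem2 of the listed genes holds it, against 7.91% of all promoters. The E-box core CACGTG and the M-boxes TCACGTG, which contains that core, and TCATGTG, read on both strands, are motifs of the MiT/TFE factors that act on lysosomal genes. They were found in 0 of the 8 promoters of 7 listed genes, and 7.15%, 3.77% and 3.77% of all promoters hold them. The promoter table covers the listed genes other than Atp6v0d2. These matches are letters in a window, and binding was not measured. Gpnmb, Trem2 and Cd68 were also the 3 members with the highest mean CS difference at day 60, an order that was not tested. Atp6v0d2, whose promoter is missing here, lay close to Cd68 there (0.99 ± 0.13 against 1.04 ± 0.14, SE). At day 2 Trem2 (0.20) lay below Lgals3 (0.51) and Atp6v0d2 (0.46). A link between motif and response was not tested.

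The acute response compared CS lungs with PBS pools at day 2. Averaged over the BLT1 genotypes, Gpnmb was higher by 1.22 ± 0.22 log2 units (SE, limma adjusted p = 0.00343), Cd68 by 0.63 ± 0.14 (adjusted p = 0.00925), Lgals3 by 0.51 ± 0.13 (adjusted p = 0.0216) and Atp6v0d2 by 0.46 ± 0.13 (adjusted p = 0.0400). These 4 of 7 rose, where 12.4% of all 19938 genes passed, 8.03% as higher and 4.37% as lower. In each of them 6 of 6 CS lungs were above their own pool, which held for 15.6% of all genes. Trem2 (0.20 ± 0.15, adjusted p = 0.468) was also above the pool in 6 of 6 lungs, Mcoln3 (0.07 ± 0.11, adjusted p = 0.750) in 4 of 6 and Lipa (0.03 ± 0.08, adjusted p = 0.845) in 3 of 6. The 95% intervals of these 3 differences were -0.12 to 0.53, -0.16 to 0.30 and -0.13 to 0.20. The median difference of the 7 genes was 0.46, against -0.02 over all genes.

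The day 2 response was also taken within each genotype, against its own pool. In BLT1-/- lungs Gpnmb rose by 1.18 ± 0.31 (adjusted p = 0.0402), and was the only member of 7 to pass, where 6.6% of all genes passed. Without BLT1-/- CS replicate 3 Gpnmb was lost there (0.99, adjusted p = 0.0962). Cd68 was at 0.44, Lgals3 at 0.53 and Atp6v0d2 at 0.51 there (adjusted p from 0.105 to 0.184). In BLT1+/+ lungs 0 of 7 passed in limma, where 1.16% of all genes passed. An unadjusted limma p under 0.05 was found there for 4 of 7, and for 2451 of all 19938 genes. Gpnmb was at 1.27 ± 0.31 (adjusted p = 0.0744), Cd68 at 0.81 ± 0.19 (adjusted p = 0.0620), Lgals3 at 0.49 and Atp6v0d2 at 0.41. With the replicate number as a block at both days, Gpnmb (limma adjusted p = 0.0133) and Cd68 (adjusted p = 0.0304) passed in BLT1+/+ lungs too. The pairing at day 2 was read from these same values, so these gained calls are no independent support.

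The day 2 calls use pools that are single arrays. Without a pool, the fit gives only the response of the genotype that keeps its pool. The CS lungs of the other genotype then drop out of the estimate too. Without the BLT1-/- pool the estimates are those of BLT1+/+ lungs given above. There 0 of the 4 calls remained, with Gpnmb at 1.27 (limma adjusted p = 0.0742) and Cd68 at 0.81 (adjusted p = 0.0619). Without the BLT1+/+ pool the estimates are those of BLT1-/- lungs. Gpnmb alone remained, with Cd68 at 0.44 (adjusted p = 0.184) and Lgals3 at 0.53 (adjusted p = 0.105). These fits cannot tell the weight of a pool from the fewer lungs used. The loss was general: of all 19938 genes, leaving out the BLT1-/- pool left 231 and leaving out the BLT1+/+ pool left 1311, against 2473 with both.

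At day 60, in lungs with KRasLA1, the response to CS was called higher for 7 of 7 genes, where 4.02% of all genes passed, 3.35% as higher and 0.677% as lower. Gpnmb rose by 1.92 ± 0.22 log2 units (SE, limma adjusted p = 0.000324), Trem2 by 1.14 ± 0.15 (2.20-fold, adjusted p = 0.000933) and Cd68 by 1.04 ± 0.14 (2.05-fold, adjusted p = 0.000827). The lysosomal genes Atp6v0d2 (0.99 ± 0.13, 1.99-fold, adjusted p = 0.00111), Mcoln3 (0.70 ± 0.11, 1.62-fold, adjusted p = 0.00201) and Lipa (0.63 ± 0.08, adjusted p = 0.000511) rose as well, and so did Lgals3 (0.75 ± 0.13, 1.69-fold, adjusted p = 0.0048). All 7 genes had 6 of 6 CS lungs above their own pool, which held for 12.2% of all genes. The median difference of the 7 was 0.99, against -0.03 over all genes.

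By genotype, 4 of 7 passed in BLT1-/-KRasLA1 lungs, where 1.17% of all genes did. These were Gpnmb (1.79 ± 0.31, adjusted p = 0.0164), Cd68 (1.04 ± 0.19, adjusted p = 0.0228), Trem2 (1.04 ± 0.21, adjusted p = 0.0338) and Lipa (0.59 ± 0.11, adjusted p = 0.0222). Atp6v0d2 was at 0.78 (adjusted p = 0.0750), Lgals3 at 0.75 (adjusted p = 0.0753) and Mcoln3 at 0.52 (adjusted p = 0.151). In BLT1+/+KRasLA1 lungs 6 of 7 passed, where 0.762% of all genes did: Gpnmb at 2.04 ± 0.31 (adjusted p = 0.0114), Trem2 at 1.24, Atp6v0d2 at 1.20, Cd68 at 1.04, Mcoln3 at 0.88 and Lipa at 0.66. Lgals3 was at 0.75 there (adjusted p = 0.0896).

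**Figure D2:**
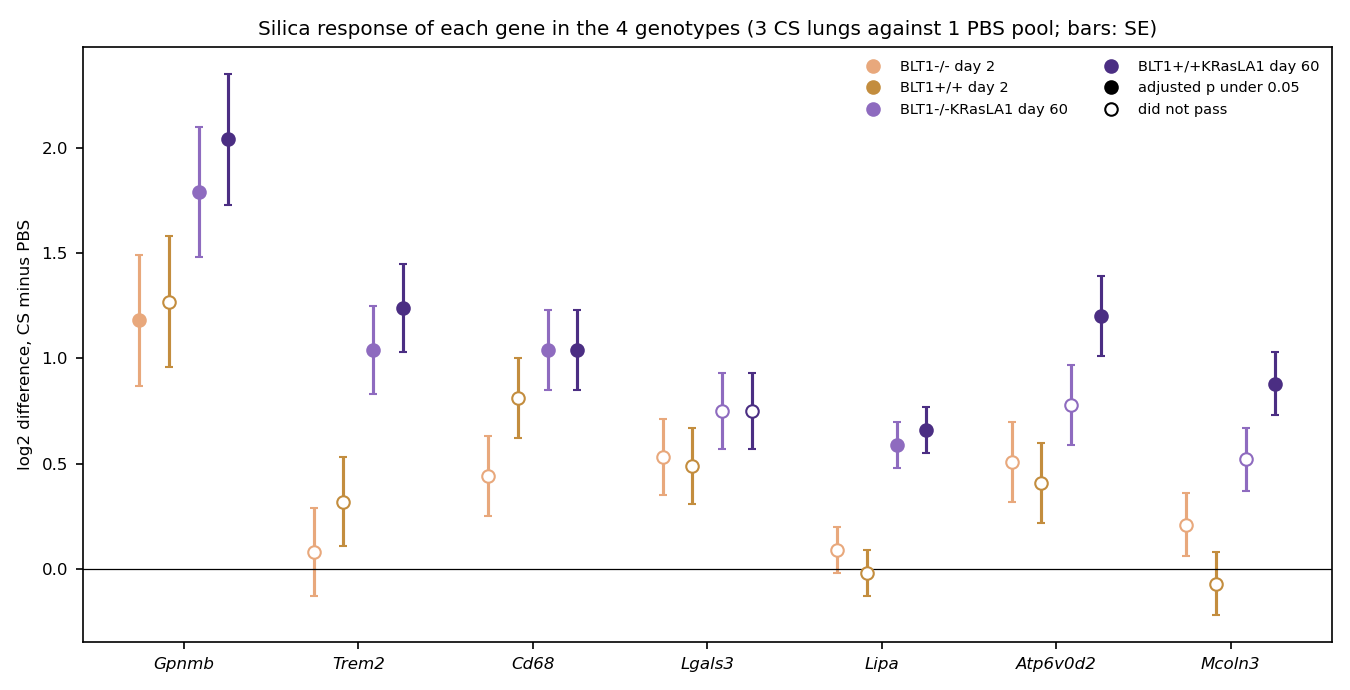
Difference in log2 level between CS lungs and the PBS pool (y axis) for each gene (x axis) in the 4 genotypes, as estimates with SE bars from the fit across all genes. Filled points passed an adjusted p of 0.05 and open points did not. Gpnmb has the highest estimates, up to 2.04 in BLT1+/+KRasLA1 lungs. The day 2 estimates of Trem2, Lipa and Mcoln3 are all open points. They run from -0.07 for Mcoln3 to 0.32 ± 0.21 for Trem2, both in BLT1+/+ lungs.

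A single lung stood out within these values. BLT1+/+KRasLA1 CS replicate 3 was the lowest of the 6 day 60 CS lungs for 7 of 7 genes, where it was lowest for 23.5% of all genes, and the highest lung was replicate 1 or 2 of the same group. Summed over 12 monocyte and recruited macrophage markers, the linear signal in replicates 1, 2 and 3 of that group was 23740, 21000 and 17430, and over 11 alveolar macrophage markers it was 40500, 34800 and 33820. Over 8 alveolar type 2 cell markers the sums were 105300, 109800 and 105100, and over 12 neutrophil markers, where replicate 3 was not the lowest, they were 11990, 5613 and 7584. Without replicate 3, Lgals3 passed in BLT1+/+KRasLA1 lungs (0.94, adjusted p = 0.00182). Without the BLT1+/+KRasLA1 PBS pool, the fit of the mean response gives that of BLT1-/-KRasLA1 lungs alone, as above. It lost Atp6v0d2 (0.78, limma adjusted p = 0.0751), Mcoln3 (0.52, adjusted p = 0.152) and Lgals3 (0.75, adjusted p = 0.0755). Without the BLT1-/-KRasLA1 pool it gives that of BLT1+/+KRasLA1 lungs alone, and Lgals3 was lost (0.75, adjusted p = 0.0899). Over all genes 234 passed without the BLT1+/+KRasLA1 pool and 152 without the BLT1-/-KRasLA1 pool, against 802 with both.

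BLT1-/- and BLT1+/+ lungs were next compared with each other after CS, 3 lungs against 3. At day 2, 0 of 7 genes passed in limma and 0 had an unadjusted p under 0.05, where 0.0201% of all genes passed. Cd68 differed most, by -0.24 ± 0.14 (95% interval -0.53 to 0.05, limma adjusted p = 0.681). Its BLT1-/- lungs were all below the BLT1+/+ lungs, which held for 6.13% of all genes. The difference was -0.18 for Gpnmb, with an interval of -0.66 to 0.30. Within the pairs of replicates 1, 2 and 3, Gpnmb differed by -0.21, -0.16 and -0.17 and Cd68 by -0.06, -0.21 and -0.45. All 3 pairs were lower in BLT1-/- lungs for 15.1% of all genes, and with the replicate block neither gene passed (adjusted p = 0.757 for Gpnmb and 0.485 for Cd68). The difference between the groups lay between -0.03 and 0.08 for the other 5 genes, whose intervals all lie within -0.35 and 0.33.

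At day 60, again 0 of 7 genes passed and 0 had an unadjusted p under 0.05, where 0.0401% of all genes passed. The differences between BLT1-/-KRasLA1 and BLT1+/+KRasLA1 lungs ran from -0.18 for Gpnmb (interval -0.66 to 0.29) to 0.01 for Cd68 (interval -0.29 to 0.30), and the lungs of the genotypes overlapped for all 7 genes. The interaction tests, which ask whether the CS response itself depends on BLT1, called 0 of 7 genes at either day, with 0 of 7 at an unadjusted p under 0.05 and 0% of all genes called. Their estimates were wide: Atp6v0d2 at day 60 was at -0.42 ± 0.27 (adjusted p = 1) and Mcoln3 at -0.37 ± 0.21 (interval -0.82 to 0.09). Both stand for a smaller CS response in BLT1-/-KRasLA1 lungs. The CS group means were close, at 12.68 in BLT1-/-KRasLA1 against 12.76 in BLT1+/+KRasLA1 for Atp6v0d2, and 10.59 against 10.62 for Mcoln3. The single BLT1-/-KRasLA1 pool was above the BLT1+/+KRasLA1 pool, at 11.90 against 11.56 for Atp6v0d2 and 10.07 against 9.74 for Mcoln3.

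The CS response of day 60 was then set against that of day 2. It was larger at day 60 for Trem2 by 0.94 ± 0.21 (limma adjusted p = 0.0380), for Mcoln3 by 0.63 ± 0.15 (adjusted p = 0.0473) and for Lipa by 0.59 ± 0.11 (adjusted p = 0.0102). These 3 of 7 passed where 2.35% of all genes did, 1.7% as higher. Gpnmb (0.69 ± 0.31, adjusted p = 0.336), Atp6v0d2 (0.53, adjusted p = 0.202), Cd68 (0.41, adjusted p = 0.359) and Lgals3 (0.25, adjusted p = 0.659) had positive differences that did not pass. Trem2, Mcoln3 and Lipa had not passed at day 2. The test uses 4 pools, and leaving out a pool also drops the CS lungs of its genotype from the estimate. Without the BLT1-/-KRasLA1, the BLT1+/+KRasLA1 or the BLT1+/+ pool of day 2 all 3 calls were lost. Trem2 then lay between 0.84 and 1.06 (limma adjusted p from 0.0621 to 0.173). Over all genes 39, 273 and 320 passed without these pools, against 469 with all of them.

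The PBS pools themselves differed between the days. Day 60 pools, which carry KRasLA1, were higher than day 2 pools for Atp6v0d2 by 1.03 ± 0.17 (2.04-fold, adjusted p = 0.0247) and for Mcoln3 by 0.90 ± 0.13 (1.86-fold, adjusted p = 0.0152), so 2 of 7 passed where 0.396% of all genes did, 0.166% as higher. Gpnmb was at 1.11 ± 0.27 (adjusted p = 0.113), and passed with the replicate block (adjusted p = 0.0334). Cd68 (0.42, adjusted p = 0.360), Lipa (0.32, adjusted p = 0.180), Lgals3 (0.27, adjusted p = 0.622) and Trem2 (0.21, adjusted p = 0.810) did not pass. The pools have no replicates, so this comparison takes its spread from the CS lungs.

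These parts add up to the difference between CS lungs of the days. Every day 60 CS lung was above every day 2 CS lung of its BLT1 genotype for 7 of 7 genes, which held for 8.07% of all genes. The mean difference was 1.80 for Gpnmb, 1.56 for Atp6v0d2, 1.53 for Mcoln3, 1.15 for Trem2, 0.92 for Lipa, 0.83 for Cd68 and 0.51 for Lgals3. Of it, the share also seen between the PBS pools was 18.2% for Trem2 and 35.3% for Lipa. It was 50.3% for Cd68, 52.2% for Lgals3, 58.9% for Mcoln3, 61.6% for Gpnmb and 65.9% for Atp6v0d2. These shares rest on single pools and spread widely when taken within a genotype. For Trem2 the share was 13.5% in BLT1-/- and 22.7% in BLT1+/+ genotypes, the lowest of the 7 genes in each. For Atp6v0d2 it was 82.0% and 51.0%, for Mcoln3 79.2% and 39.9% and for Cd68 37.3% and 67.9%, so the order of the other 6 genes is not settled. Both terms use the same pools, so an error in a pool moves them in opposite directions.

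**Figure D3:**
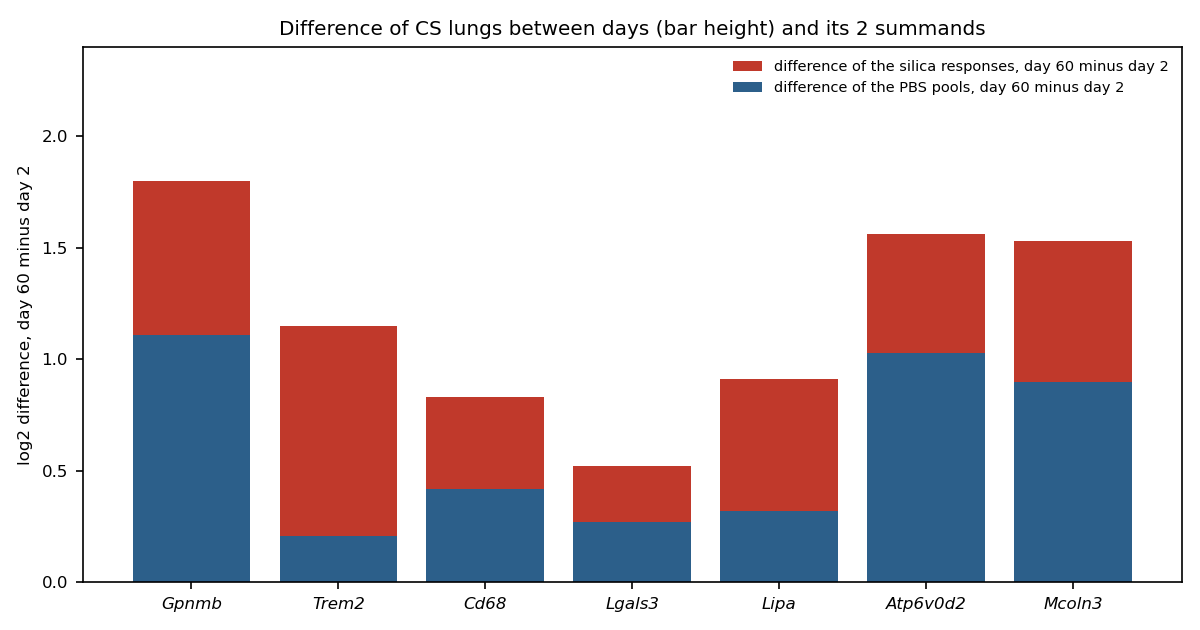
Mean log2 difference of CS lungs, day 60 minus day 2 (bar height, y axis), for each gene (x axis), split into the difference of the PBS pools (blue) and the difference of the CS responses (red), each day 60 minus day 2. Trem2 has the smallest blue share (18.2%) of the 7 genes, and no error is drawn.

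Genes whose 8 group means, centred on their own average, were closest to those of a member were also sought among all named genes. Likeness is given as the root mean square difference over the 8 groups in log2 units. Closest to Trem2 were Acp5, the tartrate-resistant acid phosphatase (0.11), and Ptgir, the prostacyclin receptor (0.12). Closest to Cd68 were Clec7a, the beta-glucan receptor (0.09), and Cd274, the checkpoint ligand PD-L1 (0.10). Lgals3 was closest to the cathepsin gene Ctsz (0.06) and to Tnfaip2 (0.07), and Lipa to the endocytic receptor gene Ly75 (0.07) and the lysosomal Pld3 (0.09). Atp6v0d2 was closest to Cd200r2 (0.16) and Cd200r4 (0.17), and Mcoln3 to Cd200r2 (0.18) and Chil3 (0.19), a chitinase-like protein of alveolar macrophages. Gpnmb, with the greatest span, had no gene nearer than Slc6a20a and the cathepsin K gene Ctsk (0.27 each).

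Lists of genes with related roles were counted around the members, where over all genes 8.03% rose and 4.37% fell at day 2, and 3.35% rose and 0.677% fell at day 60. Around Atp6v0d2, 23 other subunits of the proton pump were measured. At day 2, 3 rose and 3 fell (median 0.16, against -0.02 over all genes), with Atp6v0a4 at 0.84 (adjusted p = 0.0149) and the subunits Atp6v1b1 (-0.54) and Atp6v1c2 (-0.47) among those that passed. At day 60, 3 rose and 0 fell (median 0.13, against -0.03), namely Tcirg1, the a3 subunit of macrophages and osteoclasts (0.62, adjusted p = 0.000827), Atp6v1c1 (0.47) and Atp6v1b2 (0.37). The other 20 subunits did not pass at day 60. Of the 23, 11 had an unadjusted limma p under 0.05 there, as did 2804 of all 19938 genes.

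Around Mcoln3 and Cd68, 18 lysosomal membrane proteins and channels gave 1 rise and 1 fall at day 2 (5.56% each, near the shares over all genes, median -0.03). The rise was Cd63, a tetraspanin of late endosomes, at 0.63 (adjusted p = 0.00308). At day 60, 4 rose and 0 fell (median 0.10): Mcoln2, the neighbouring channel of the mucolipin family (0.55, adjusted p = 0.0313), Laptm5 (0.51), the cation channel Tpcn2 (0.27) and the cholesterol exporter Npc1 (0.26).

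Around Lipa, 28 of 32 lysosomal enzymes and activators other than cathepsins were measured. At day 2, 4 rose and 2 fell (median -0.06), among them the alpha-galactosidase Gla (0.83, adjusted p = 0.0141) and, as a fall, the ganglioside activator Gm2a (-0.31). At day 60, 7 rose and 0 fell (median 0.22). They included Acp5 (1.10, adjusted p = 0.000511), Gla (1.01), Gusb (0.56), the protease Lgmn (0.55) and the sphingolipid activator precursor Psap (0.49). Acp5 was at -0.06 at day 2, and its response differed between the days by 1.16 (adjusted p = 0.00552).

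Genes of lipid uptake, storage and efflux moved in both directions. Of 20 measured out of 22, 3 rose and 5 fell at day 2 (median -0.04). Ch25h, which makes an oxysterol, rose by 1.93 (adjusted p = 2e-05), and the scavenger receptors Msr1 and Olr1 rose by 1.70 and 1.09. The cholesterol exporters Abca1 (-0.65, adjusted p = 0.000255) and Abcg1 (-0.51), Pltp (-0.62), Apoe (-0.41) and Cd36 (-0.22) fell. At day 60, Ch25h (1.65), Msr1 (1.60), Olr1 (0.93) and the fatty acid carrier Fabp5 (0.85) rose and Cd36 fell by 0.18 (median 0.13). The list covers opposed functions, so its counts give no direction of lipid handling.

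Trem2 signals through partners that were also measured. Of 8 genes of the Trem family and its adaptors, the kinase Syk (0.58, adjusted p = 0.00212) and the adaptor Tyrobp (0.51, adjusted p = 0.00921) rose at day 60 and 0 fell (median 0.51), while the adaptor Hcst was at 0.09 (adjusted p = 0.780). At day 2, 0 rose and 2 fell (median -0.24), Syk by 0.32 and Treml1 by 0.38. Tyrobp was at 0.03 at day 2. Tyrobp and Syk serve many other receptors of leukocytes.

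Of the 4 MiT/TFE factors, Tfec rose at both days, by 0.88 (adjusted p = 0.000219) at day 2 and 0.74 (adjusted p = 0.000885) at day 60, and its PBS pools of day 60 exceeded those of day 2 by 0.81 (adjusted p = 0.0152). Tfeb, the factor best known for lysosomal genes, was at 0.06 and 0.03, and Mitf at 0.27 and 0.30, none of which passed. Tfe3 did not pass at either day. At each day 3 of the 4 factors had an unadjusted limma p under 0.05. Over all genes this held for 4949 at day 2 and 2804 at day 60. Among the receptors of osteopontin, whose own gene was not analysed here, 4 of 10 rose and 2 fell at day 2, with Itga5 at 0.70 and Itga4 at -0.85, and Cd44 alone rose at day 60 (0.51, adjusted p = 0.00908). Of 8 galectin genes measured besides Lgals3, Lgals1 rose at both days (0.49 and 0.25), and Lgals3bp, a galectin-binding protein, rose by 0.98 at day 60.

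**Figure D4:**
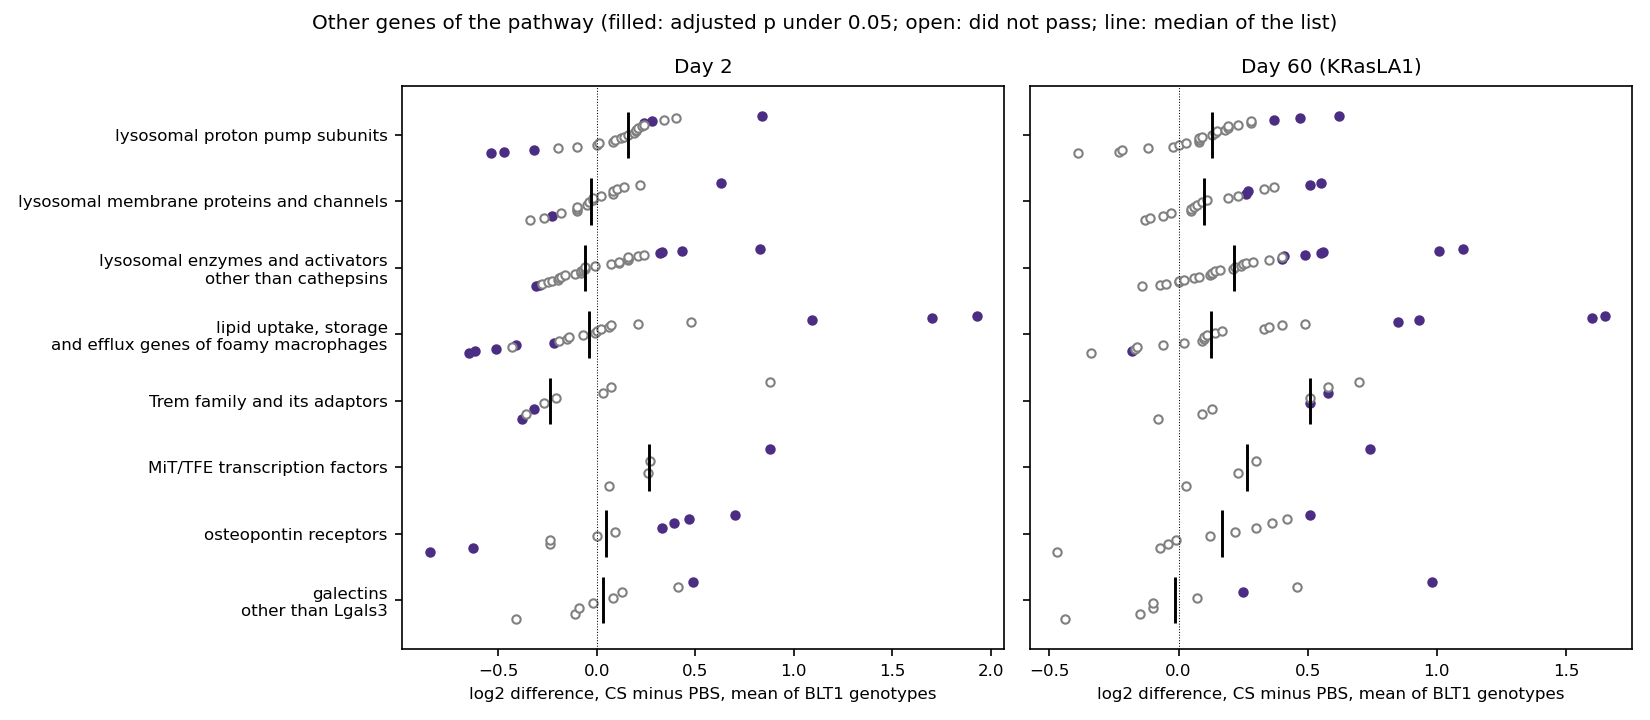
Log2 difference between CS lungs and PBS pools, mean of the BLT1 genotypes (x axis), for the measured genes of 8 lists around the members (y axis), at day 2 and at day 60. Each circle is a gene, filled where its adjusted p was under 0.05, and the vertical line is the median of the list. Most circles are open and lie on both sides of 0, with Ch25h (1.93) farthest right at day 2.

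Markers of cell types moved beside the members. Over all genes 8.03% rose and 4.37% fell at day 2, and 3.35% rose and 0.677% fell at day 60. Of 12 monocyte and recruited macrophage markers, 10 rose at day 60 (median 0.75), among them Itgam (1.37), Ms4a7 (1.35) and C1qb (0.98), and 3 rose and 1 fell at day 2 (median 0.25). Their summed linear signal at day 60 was 17860 to 22280 in BLT1-/-KRasLA1 CS lungs against 12010 in the pool, and 17430 to 23740 in BLT1+/+KRasLA1 CS lungs against 13300. At day 2 it was 13770 to 15170 in BLT1-/- CS lungs against 13200, and 16740 to 19660 in BLT1+/+ CS lungs against 13650. Between BLT1-/- and BLT1+/+ lungs after CS at day 2, 0 of these 12 markers passed in limma (median -0.23). An unadjusted limma p under 0.05 was found there for 6 of them, and for 1735 of all 19938 genes.

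Of 11 alveolar macrophage markers, Itgax (1.05), Chil3 (0.93) and Plet1 (0.40) rose and Fabp1 (-1.23) fell at day 60. There 3.35% of all genes rose and 0.677% fell. At day 2, 1 of the 11 rose and 1 fell (median -0.05), where 8.03% of all genes rose and 4.37% fell. At day 60 the sum of the 11 was 35940 to 42590 in BLT1-/-KRasLA1 CS lungs against 29250 in the pool. In BLT1+/+KRasLA1 CS lungs it was 33820 to 40500 against 27070. At day 2 the sums were 20350 to 23760 in BLT1-/- CS lungs, 23140 to 24130 in BLT1+/+ CS lungs and 21660 in each pool. Between the PBS pools of the days, 0 of these 11 markers passed in limma (median 0.40, day 60 minus day 2). An unadjusted limma p under 0.05 was found there for 6 of them, and for 2127 of all 19938 genes.

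Other cell types that use these genes were also followed. The shares over all genes were 8.03% risen and 4.37% fallen at day 2, and 3.35% and 0.677% at day 60. Of 8 osteoclast markers, Ctsk (1.84), Acp5, Mmp9 (1.04) and Dcstamp (0.91) rose at day 60, all of which macrophages can express. At day 2, 1 of these 8 markers rose and 0 fell. Melanocyte markers, listed because of Gpnmb, gave 0 of 6 calls in limma at either day and 0 at an unadjusted p under 0.05, with sums of 798.5 to 985 on all arrays. At day 2 heart muscle markers fell in 5 of 8 (median -0.89), T cell markers in 6 of 8 (median -0.50) and B cell markers in 7 of 7 (median -1.05), and at day 60 T cell markers rose in 5 of 8. Of 12 neutrophil markers, S100a8 (1.45) and Cxcr2 (1.42) rose at day 60 (median 0.61). At day 2, 0 passed in limma. An unadjusted limma p under 0.05 was found there for 4949 of all 19938 genes, and for 3 of these 12 neutrophil markers. Their sum at day 60 was 6082 to 10770 in BLT1-/-KRasLA1 CS lungs against 3719 in the pool, and 5613 to 11990 in BLT1+/+KRasLA1 CS lungs against 5079. Neutrophil marker sums were 3719 to 5079 in the day 60 pools, against 16030 to 23390 in the day 2 pools. Alveolar type 2 cell markers had 1 rise and 1 fall of 8 at day 2 and 1 rise at day 60. Each is a single gene, 12.5% of a list of 8. The part of these cell types in the members' values was not tested.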

How the data were processed

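The deposited table holds log2 expression values per probe set for 16 arrays. Per the submitters' processing notes, the authors used Partek 6.6 and RMA, in an order that those notes do not state. RMA scales the arrays to each other, which can hide changes in total RNA and understates changes of dim probe sets. Of 35556 probe sets, 21789 carried 1 symbol in the platform annotation, 1621 several and 12146 none. Where a gene had several probe sets (999 genes), that with the highest mean was kept, and each measured member had 1. This left 19938 genes.

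The 8 group means were fitted jointly (R 4.3.3, limma 3.58.1: lmFit, eBayes with a mean-variance trend), with 8 residual and 5.4 prior degrees of freedom. PBS pools have no replicate, so the fit lends them the spread of the CS lungs. Tests are two-sided, each p from limma, adjusted by Benjamini-Hochberg over all genes, with a threshold of 0.05, and 12 comparisons were made. Precision is limited by the number of arrays. Errors are SE unless called SD, and differences are in log2 units. The members, gene lists and tests were chosen with earlier results of these data known. Named are all members, up to 4 genes of a list with the smallest p in a comparison and up to 3 that did not pass, Ltb4r1, fixed cell type markers, and for each member the 2 genes of most similar group means. Some further genes of a list were named after their values were seen, as were Eif2s3y, Xist and the comparison of replicate 3 with the other day 60 lungs.

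Same-numbered CS lungs of the BLT1 genotypes deviated together at day 2 (r = 0.43, 0.20 and 0.34 over genes) and not at day 60 (0.09, 0.01 and 0.06), so the numbers were taken to pair the day 2 lungs. The replicate block was fitted at both days all the same. Since the pairing was read from these values, calls gained with the block are no independent support. Alternatives were quantile and cyclic loess normalization, dim genes left out, the mean of probe sets, no trend, arrays of a day alone, array weights, the replicate block, and leaving out each array. Leaving out a pool used an additive fit, which rests on the pool that remains. For that day it gives the response of the genotype that keeps its pool. Promoters are from RefSeq (GRCm38.p6), which held 7 of the 8 listed genes.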

Additional observations from a re-analysis of the deposited data

Results flagged for a closer look

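The response to CS differed between the days by a test of the difference itself for 3 of the 7 genes, where 2.35% of all genes passed. Trem2 had a CS response larger by 0.94 ± 0.21 log2 units at day 60 than at day 2 (limma adjusted p = 0.0380), with 6 of 6 CS lungs above their pool at both days. Mcoln3 had a difference of 0.63 ± 0.15 (adjusted p = 0.0473), with 6 of 6 lungs above their pool at day 60 and 4 of 6 at day 2. Lipa had a difference of 0.59 ± 0.11 (adjusted p = 0.0102), with 6 of 6 and 3 of 6 lungs above their pool. All 6 lungs were above their pool for 15.6% of all genes at day 2 and 12.2% at day 60. For Trem2 at day 2 this includes a BLT1-/- lung at 8.82 against a pool of 8.81. Its day 2 response was 0.20 ± 0.15 (limma adjusted p = 0.468). The day 60 mice carry KRasLA1 and the day 2 mice do not, so day and allele cannot be told apart in the differences between the days. Of 23 alternatives for this comparison, Trem2 passed in 10, Mcoln3 in 9 and Lipa in 20. Over the alternatives that leave out an array, 0 to 3 of the 7 genes passed. Lipa alone passed without the BLT1-/- PBS pool of day 2, without BLT1-/- CS replicate 1 or 2 or BLT1+/+ CS replicate 3 of day 2, and without BLT1-/-KRasLA1 CS replicate 2 or 3. Lipa was lost without any of the other 3 pools, at 0.54 to 0.63 (adjusted p from 0.059 to 0.067). Trem2 was also lost without BLT1+/+ CS replicate 2 of day 2 or BLT1+/+KRasLA1 CS replicate 2. Mcoln3 was also lost without BLT1-/- CS replicate 3 of day 2, BLT1-/-KRasLA1 CS replicate 1 or BLT1+/+KRasLA1 CS replicate 1.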

How the results depend on the processing

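Of 1918 recomputed values of single members over 25 settings, 1820 kept their side of the threshold, 77 lost a call, 21 gained one and 0 reversed. The sign held in 517 of 517 recomputed values of members called in a CS against PBS comparison. Many settings, such as no trend or leaving out an array of another group, leave the estimate unchanged, so there the sign could not change. Of 274 recomputed counts of called members, 243 were within 1.5 times the reported count. With array weights, and with the replicate block, 2 members passed in BLT1+/+ lungs at day 2, in place of 0. In BLT1-/- lungs at day 2, 0 passed with cyclic loess, without the mean-variance trend and with the day 2 arrays alone, in place of 1. With the day 60 arrays alone, 1 passed in BLT1-/-KRasLA1 lungs and 2 in BLT1+/+KRasLA1 lungs, in place of 4 and 6. For the CS response at day 60 against day 2, 1 passed with quantile normalization and 1 without the trend, in place of 3. GAGGAAG was in 4 listed genes over 300 bases and in 1 over the 100 before to 50 after the start.

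Leaving out single arrays gave 0 to 4 members for the mean response at day 2 and 4 to 7 at day 60. At day 2 it gave 0 to 2 in BLT1-/- and 0 to 2 in BLT1+/+ lungs. At day 60 it gave 0 to 6 in BLT1-/-KRasLA1 and 3 to 7 in BLT1+/+KRasLA1 lungs. The response between days kept 0 to 3, and the BLT1 differences and interactions 0 to 0. A response within a genotype was not fitted without its own pool, nor an interaction without a pool of its day. The PBS pools kept 2 to 3, but there only CS lungs were left out (12 settings). Those lungs lend the spread and do not enter the difference of the pools. The count in BLT1-/-KRasLA1 lungs was 0 without CS replicate 3 and 2 without CS replicate 2, and that in BLT1+/+KRasLA1 lungs was 3 without CS replicate 1. Atp6v0d2 at day 2 was also lost with cyclic loess (adjusted p = 0.0525), without the trend (0.0581) and without single lungs (0.0503 to 0.0819). The replicate block moved the count of all genes past the threshold to 2277 against 1315 in BLT1-/- and 730 against 232 in BLT1+/+ lungs at day 2, 911 against 469 for the response between days and 202 against 79 for the pools, and passed Atp6v0d2 in BLT1-/-KRasLA1 lungs (adjusted p = 0.0448). It changed no call of a member besides these and those given above. The cause of these changes was not tested. Fits that leave arrays out also have fewer arrays, and they cannot tell this from the part of the array left out.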
